A study of Mus musculus with 52 samples.

Results

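Skeletal muscle of transgenic mice that carry mutant human PFN1 and were given a viral vector against Atxn2 was compared with skeletal muscle of wild-type mice. The treated transgenic arm (6 libraries) has the genotype PFN1_C71G and the treatment amiR_ATXN2, an AAV vector that encodes an artificial microRNA (amiR) directed at Atxn2. The wild-type arm (6 libraries) has the genotype FVB_WT, that is FVB/NJ mice, and was given vehicle. These are 12 of the 52 libraries of the series, chosen by the tissue and arm in their titles and by no measured value, and every mouse gene that passed a filter on low counts is covered. Each arm held 3 females (replicates 1 to 3) and 3 males (replicates 4 to 6). Wild-type mice were all 36 weeks old, while treated mice were 36 weeks old except replicate 2 (38 weeks) and replicate 3 (39 weeks). The arms differ in the transgene and in the vector, and no arm received a control vector, so the part of each cannot be told apart within this pair. Muscle of transgenic mice given vehicle is therefore given beside it where it bears on a result (5 libraries: 2 females and 3 males, 36 weeks old except replicate 2, a female of 39 weeks). The muscle sampled, the promoter of the transgene, and the dose, route and age of injection are not given in the sources used here. The labels do not say that the libraries of an arm come from separate animals, so p-values measure the spread between these samples.

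Human PFN1 encodes profilin-1, a protein that binds actin monomers, and mutations in it cause amyotrophic lateral sclerosis (ALS), a disease in which motor neurons die and muscle loses its nerve supply. Atxn2 encodes ataxin-2, an RNA-binding protein studied as a target in ALS. In an innervated fibre, acetylcholine receptors are made by the few nuclei under the nerve ending. After the nerve is lost, nuclei along the whole fibre switch on receptor genes, the transcription factors myogenin and Runx1, and ion channels of immature muscle. Fibres are also told apart by their sarcomere proteins: fast fibres hold fast myosins, the SERCA1 calcium pump and much glycolytic enzyme, and slow fibres hold slow myosin, slow troponins and SERCA2.

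The poly(A) libraries held 79292796 to 107070397 estimated counts in treated transgenic muscle and 66481847 to 100648398 in wild-type muscle, with 22639 to 23181 and 21275 to 22052 genes above 0 counts. RNA integrity (RIN) was 7.6 to 8 in treated transgenic and 7.1 to 7.8 in wild-type samples, so it moved with the arm. Of 17170 genes tested with edgeR's quasi-likelihood test, 5966 (34.7%) differed between treated transgenic and wild-type muscle at an adjusted p under 0.05: 2976 (17.3%) rose and 2990 (17.4%) fell. At an unadjusted p under 0.05 there were 7577 (44.1%), and with RIN as a covariate 1853 fell. Rises were the larger changes, since 960 genes (5.59%) rose and 198 (1.15%) fell by more than 2-fold. All 6 treated libraries lay above all 6 wild-type libraries for 1284 genes (7.48%) and below them for 1168 (6.8%). Each log2 change below is treated transgenic minus wild type from this model, with its standard error (SE), and its median over all genes tested was 0.00. Single-library levels are CPM (counts scaled to library size) after TMM scaling, given as the lowest, median and highest of the 6 libraries. With library totals alone in place of TMM scaling, the median of all genes moved to 0.20, and 6202 genes rose while 1062 fell. All changes below are relative to the TMM scale. The larger shifts of a gene group's count with RIN as a covariate, on library totals alone or without a single library stand beside it. Fibre markers of the labelled tissue were abundant: 8 of them summed to 71289.8 to 89576 CPM in treated transgenic and 97969.5 to 129827 CPM in wild-type muscle, with 5 of the 8 called lower, and Chat, the enzyme that makes acetylcholine in motor neurons, was at 0 counts in all 12 libraries.

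**Figure D1:**
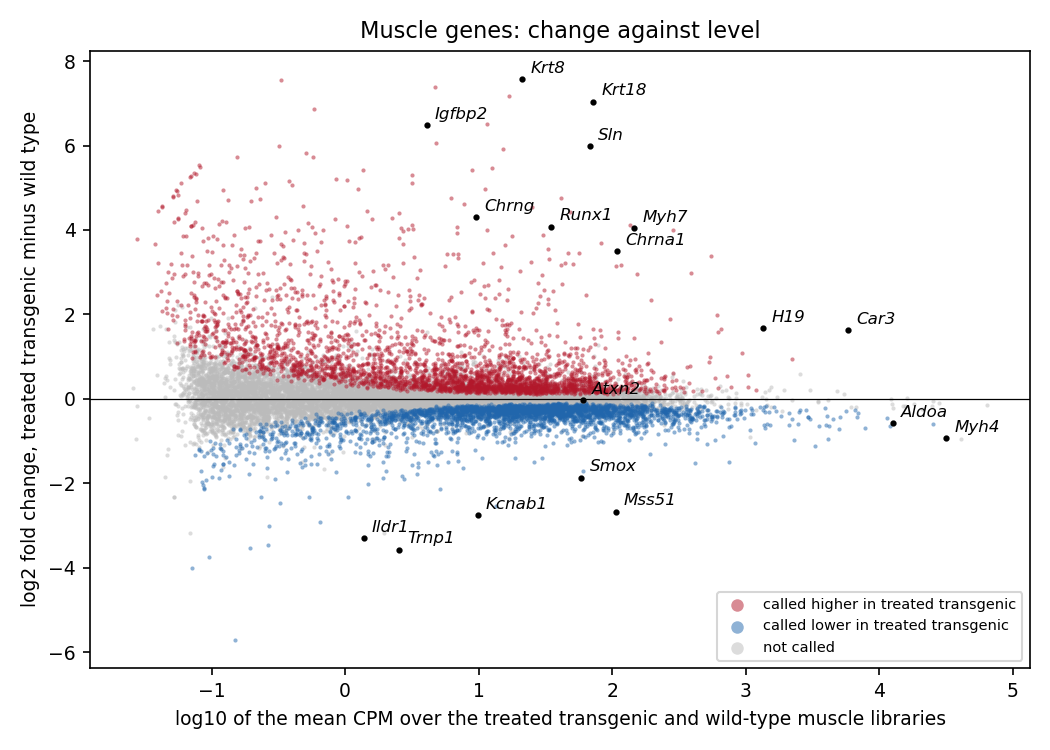
Mean level of each tested gene over both arms (x axis, log10 of CPM) against its log2 change, treated transgenic minus wild type (y axis), without genes whose mean is 0 in an arm. Genes that rose (2976) and fell (2990) are coloured, and the rises reach further from 0 than the falls.

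The transgene was read in every treated library. Human PFN1 lay at 186 to 305 unscaled CPM in treated transgenic muscle, against at most 0.0135 CPM (0 or 1 count) in wild-type muscle, and the groups did not overlap (exact permutation test over the 12 libraries, two-sided, p = 0.00216, the smallest possible; adjusted p = 0.00649 over 3 genes). Atxn2, the target of the amiR, was at 53.1, 59.4 and 70.0 CPM in treated transgenic muscle, against 57.1, 61.9 and 65.8 CPM in wild-type muscle after TMM scaling, and the arms overlapped. Its log2 change was −0.03 ± 0.06 (SE, adjusted p = 0.741), within the spread of the libraries. On unscaled CPM Atxn2 averaged 61.7 ± 4.63 in treated transgenic and 54.9 ± 3.22 CPM in wild-type muscle (SD, n = 6 each), a log2 difference of 0.16 (exact permutation p = 0.0108, adjusted p = 0.0108), so its direction depends on the scaling. Mouse Pfn1 likewise passed on unscaled CPM, at 117 ± 15.3 in treated transgenic and 91.2 ± 5.16 CPM in wild-type muscle (SD, n = 6 each; log2 difference 0.35, exact permutation p = 0.00866, adjusted p = 0.0108), but not after TMM scaling in edgeR (0.16 ± 0.08, adjusted p = 0.123), unless treated replicate 2 was left out (adjusted p = 0.00539). Reads of the mouse and human genes may be shared between the 2 entries. The vector was barely read in muscle. The WPRE element of the vector transcript had 1 to 5 counts in each treated library, 17 in all, and 0 in every wild-type library, and the miRE scaffold of the amiR had 1 count in 1 treated library.

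The promoters of 3 genes with large rises below, and of 1 receptor gene whose change did not pass, are shown because myogenin and its relatives bind the E-box CANNTG. Each is the 250 bases before the start site, 5′ to 3′ on the strand of the gene, from RefSeq with build GRCm38.p6, with E-boxes in capitals.
Chrna1 (chr2:73580339-73580588, minus strand): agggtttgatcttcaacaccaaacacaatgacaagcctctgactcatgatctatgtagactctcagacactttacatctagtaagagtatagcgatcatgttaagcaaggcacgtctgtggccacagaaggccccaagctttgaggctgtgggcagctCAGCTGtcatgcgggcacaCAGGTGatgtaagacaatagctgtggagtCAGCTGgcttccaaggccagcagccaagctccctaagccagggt
Chrng (chr1:87205561-87205810, plus strand): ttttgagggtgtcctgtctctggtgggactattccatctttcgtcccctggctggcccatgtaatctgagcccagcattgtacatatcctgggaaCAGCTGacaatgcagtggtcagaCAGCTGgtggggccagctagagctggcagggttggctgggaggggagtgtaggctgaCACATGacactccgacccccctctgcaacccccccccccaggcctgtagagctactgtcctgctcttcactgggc
Myog (chr1:134289754-134290003, plus strand): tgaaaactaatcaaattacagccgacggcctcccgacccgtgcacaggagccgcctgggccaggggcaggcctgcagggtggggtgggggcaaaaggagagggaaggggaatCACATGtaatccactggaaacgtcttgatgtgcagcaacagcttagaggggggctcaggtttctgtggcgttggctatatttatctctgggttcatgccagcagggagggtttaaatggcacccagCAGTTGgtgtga
Chrne (chr11:70619195-70619444, minus strand): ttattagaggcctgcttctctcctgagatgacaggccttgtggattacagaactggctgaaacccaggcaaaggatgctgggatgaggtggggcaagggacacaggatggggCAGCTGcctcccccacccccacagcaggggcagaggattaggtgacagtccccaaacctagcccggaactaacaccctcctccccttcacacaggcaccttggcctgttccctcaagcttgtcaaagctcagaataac
The Chrna1 and Chrng windows hold 3 E-boxes each, Myog 2 and Chrne 1. The motif reads alike on both strands, and 21753 of 32851 such windows in RefSeq (66.2%) hold at least 1, with a median of 1 and 12.2% with 3 or more. A match is a run of letters and not a measured binding site.

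Genes of the acetylcholine receptor and the neuromuscular synapse split by subunit. Of 15 tested members of this group, 8 rose and 1 fell, where 17.3% of all genes rose, and the median log2 change was 0.33. Chrna1, the α1 subunit that binds acetylcholine, was at 64.0, 203 and 266 CPM in treated transgenic muscle, against 15.5, 17.3 and 19.8 CPM in wild-type muscle. Every treated library lay above every wild-type library, with replicate 2 lowest, and the log2 change was 3.49 ± 0.26 (SE, adjusted p = 1.38e-07). Chrnd, the δ subunit, was at 20.3, 64.7 and 82.5 CPM in treated transgenic muscle, against 2.95, 3.73 and 4.50 CPM in wild-type muscle, again with no overlap and with a log2 change of 3.89 ± 0.25 (SE, adjusted p = 3.96e-08). Chrng, the γ subunit of the fetal receptor, was at 7.85, 17.7 and 28.6 CPM in treated transgenic muscle, against 0.478, 0.749 and 1.40 CPM in wild-type muscle. It had the largest rise of the group, 4.30 ± 0.33 (SE, adjusted p = 1.84e-07), and its lowest treated library was far above the highest wild-type library. Chrne, the ε subunit that replaces γ in adult muscle, was at 6.99, 9.03 and 10.3 CPM in treated transgenic muscle, against 7.35, 9.21 and 11.2 CPM in wild-type muscle. The arms overlapped almost fully (−0.09 ± 0.11 SE, adjusted p = 0.569). Chrnb1, the β1 subunit, rose by 1.21 ± 0.17 (SE, adjusted p = 3.92e-05), with treated replicate 2 inside the wild-type range. Musk, the receptor kinase that organises the synapse, rose by 1.90 (adjusted p = 5.78e-06), and its co-receptor Lrp4 by 0.78 (adjusted p = 0.000654). For both genes all treated libraries lay above all wild-type libraries. Erbb3, a neuregulin receptor, rose less (0.50, adjusted p = 6.08e-05). Ache, the esterase that clears acetylcholine from the synapse, was at 14.0, 17.1 and 22.4 CPM in treated transgenic muscle, against 26.1, 32.4 and 36.8 CPM in wild-type muscle. It was the member that fell (−0.89 ± 0.10 SE, adjusted p = 9.12e-06), and no treated library reached the wild-type range.

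**Figure D2:**
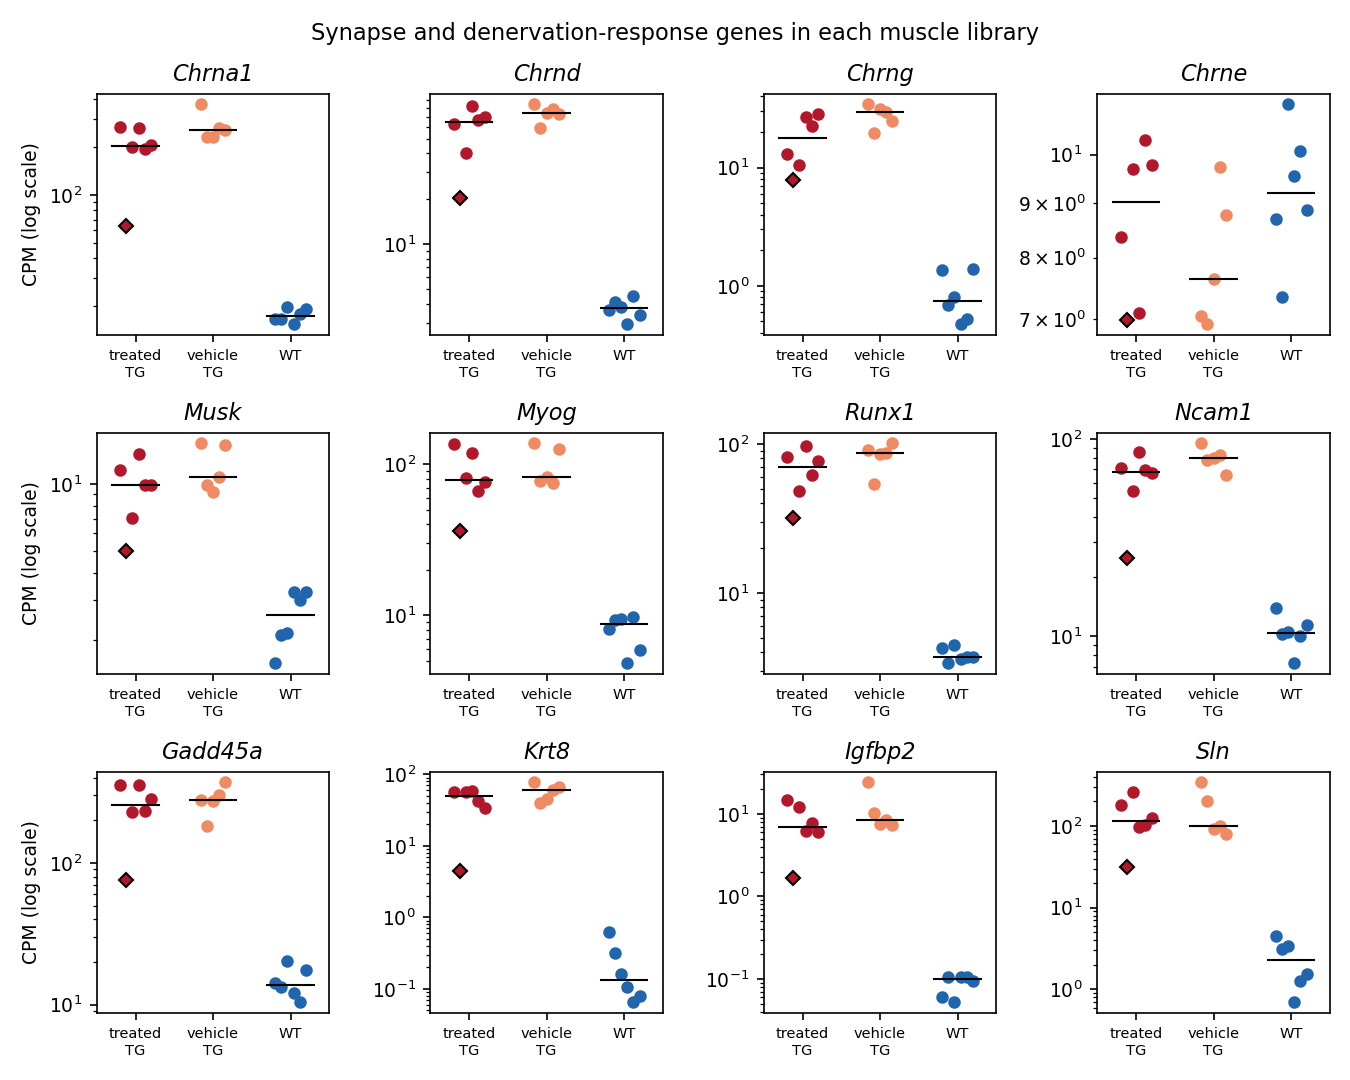
Level in every muscle library (CPM, log scale) of receptor and denervation genes and of Krt8, Igfbp2 and Sln, with the median of each arm as a line, for treated transgenic, vehicle-treated transgenic and wild-type muscle from left to right, with treated replicate 2 as a black-edged diamond. Chrna1 lies at 64.0 to 266 CPM in treated transgenic and 15.5 to 19.8 CPM in wild-type muscle, while Chrne overlaps between arms.

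Genes known to rise when muscle loses its nerve were the group with the highest median change among those described: of 16 tested, 13 rose and 0 fell, and the median log2 change was 2.74. For 12 of them every treated library lay above every wild-type library, which 7.48% of all genes did. The members of this list, as of the others, were chosen with earlier results of these data known. The rank and the counts therefore describe the list and do not test it. Myog, the transcription factor myogenin, was at 36.3, 78.6 and 137 CPM in treated transgenic muscle, against 4.86, 8.73 and 9.83 CPM in wild-type muscle. The arms did not overlap, and the log2 change was 3.45 ± 0.30 (SE, adjusted p = 4.89e-07). Runx1, a transcription factor that protects denervated fibres from wasting, was at 31.6, 69.7 and 96.5 CPM in treated transgenic muscle, against 3.39, 3.71 and 4.49 CPM in wild-type muscle (4.08 ± 0.23 SE, adjusted p = 1.08e-08). Gadd45a, a stress gene that remodels nuclei of denervated fibres, was at 75.1, 259 and 358 CPM in treated transgenic muscle, against 10.5, 13.7 and 20.2 CPM in wild-type muscle (4.11 ± 0.31 SE, adjusted p = 1.73e-07). All treated libraries of both genes exceeded all wild-type libraries, and replicate 2 was the lowest treated library. Ncam1, a cell adhesion molecule spread over denervated fibres, rose by 2.55 (adjusted p = 8.24e-07), and the calcium-activated potassium channel gene Kcnn3 by 2.93 (adjusted p = 5.85e-06). Hdac4, a deacetylase that links denervation to myogenin, was at 59.6, 113 and 148 CPM in treated transgenic muscle, against 32.5, 33.9 and 37.5 CPM in wild-type muscle (1.66 ± 0.16 SE, adjusted p = 1.33e-06). Gdf5, a BMP-family growth factor made by denervated muscle, was at 7.62, 16.6 and 30.3 CPM in treated transgenic muscle, against 0.155, 0.430 and 0.724 CPM in wild-type muscle (5.43 ± 0.34 SE, adjusted p = 2.97e-08), with every wild-type library under 1 CPM. Ankrd1, a stretch-responsive ankyrin repeat protein, rose by 4.01 (adjusted p = 2.52e-06), and Cdkn1a, the cell-cycle inhibitor p21, by 3.17 (adjusted p = 4.35e-08). Treated replicate 2, a female of 38 weeks, was the lowest treated library for 10 of the 13 genes that rose here and for 6 of the 8 receptor and synapse genes that rose. Without it the counts were 13 of 16 with a median of 2.96 and 9 of 15 with a median of 0.34.

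Regulators of muscle formation moved in both directions: 6 of 16 rose, 3 fell, and the median was 0.18, with 10 up and 2 down on library totals alone. Of all genes 17.3% rose and 17.4% fell, so the share of regulators that fell was near that of all genes. Mymk, myomaker, and Mymx, myomixer, the membrane proteins that fuse myoblasts, were low in wild type. Mymk was at 4.70, 10.1 and 14.1 CPM in treated transgenic muscle, against 0.369, 0.993 and 2.28 CPM in wild-type muscle, and Mymx was at 0.833, 2.49 and 3.60 CPM in treated transgenic muscle, against 0.159, 0.276 and 0.324 CPM in wild-type muscle. Neither gene's arms overlapped, and the log2 changes were 3.14 ± 0.35 (SE, adjusted p = 5.25e-06) for Mymk and 3.00 ± 0.35 (SE, adjusted p = 9.66e-06) for Mymx. Myf6, the regulatory factor MRF4 of mature fibres, rose by 1.43 (adjusted p = 1.37e-05). Myod1, the factor that commits cells to muscle, was at 26.7, 53.8 and 86.3 CPM in treated transgenic muscle, against 22.1, 34.7 and 52.2 CPM in wild-type muscle; its change of 0.62 ± 0.30 (SE, adjusted p = 0.117) did not pass, but did without mice older than 36 weeks (adjusted p = 0.0147). Pax7, which marks satellite cells, the stem cells of muscle, did not pass either (0.15 ± 0.17 SE, adjusted p = 0.527). Mstn, myostatin, a secreted brake on muscle growth, was at 11.5, 23.1 and 26.4 CPM in treated transgenic muscle, against 25.1, 29.4 and 51.0 CPM in wild-type muscle and fell by 0.76 ± 0.21 (SE, adjusted p = 0.0111).

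Sarcomere genes of developing and slow fibres rose while those of fast fibres fell. Of 8 developmental sarcomere genes 7 rose and 0 fell (median 2.26), of 13 slow-fibre genes 10 rose and 0 fell (median 2.34), and of 16 fast-fibre genes 0 rose and 14 fell (median −0.61), where 17.4% of all genes fell. Tnni1 and Tnnc1 stand in both of the first 2 lists. All treated libraries lay above all wild-type libraries for 6 developmental and 4 slow-fibre genes, which 7.48% of all genes did. They lay below for 10 fast-fibre genes, which 6.8% of all genes did. Treated replicate 4 was the lowest treated library for 9 of the 10 slow-fibre genes that rose. Myh3, embryonic myosin, was at 15.9, 28.3 and 33.8 CPM in treated transgenic muscle, against 3.37, 7.86 and 14.7 CPM in wild-type muscle (1.80 ± 0.32 SE, adjusted p = 0.000381). Myh8, perinatal myosin, was at 32.5, 58.9 and 234 CPM in treated transgenic muscle, against 10.3, 17 and 23.2 CPM in wild-type muscle (2.45 ± 0.41 SE, adjusted p = 0.00021). For both, all treated libraries were above all wild-type libraries, and the 2 highest Myh8 values were treated females 1 and 3. Myh7, slow myosin, was at 38.4, 243 and 687 CPM in treated transgenic muscle, against 3.85, 6.85 and 82.4 CPM in wild-type muscle. The arms overlapped, in that wild-type replicate 1 had 82.4 CPM while the other wild-type libraries had at most 7.11 CPM; the log2 change was 4.04 ± 0.80 (SE, adjusted p = 0.000866). Tnnt1, slow troponin T, was at 74.9, 141 and 310.4 CPM in treated transgenic muscle, against 6.71, 9.15 and 28.4 CPM in wild-type muscle (3.69 ± 0.40 SE, adjusted p = 4.96e-06). Slow troponin I, Tnni1, rose by 3.56 (adjusted p = 7.96e-06), and Myl2, the slow regulatory light chain, by 3.17 (adjusted p = 0.0031) with overlapping arms. Atp2a2, the SERCA2 pump of slow fibres, was at 184, 278 and 616 CPM in treated transgenic muscle, against 34.6, 57.5 and 99.3 CPM in wild-type muscle (2.34 ± 0.32 SE, adjusted p = 3.18e-05), with no overlap. Sln, sarcolipin, a small inhibitor of SERCA, was at 31.4, 115 and 259.6 CPM in treated transgenic muscle, against 0.705, 2.32 and 4.50 CPM in wild-type muscle. Its rise of 5.99 ± 0.45 (SE, adjusted p = 1.4e-07) was the largest of the slow-fibre group, and the arms did not overlap.

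On the fast side, Myh4, the myosin of type IIB fibres, was at 12937, 25397 and 26944 CPM in treated transgenic muscle, against 29847, 43169 and 50066 CPM in wild-type muscle. All treated libraries lay below all wild-type libraries, and the log2 change was −0.93 ± 0.28 (SE, adjusted p = 0.0149); the call was lost with RIN as a covariate (adjusted p = 0.0837). Atp2a1, the SERCA1 pump, was at 16737, 19817 and 23899 CPM in treated transgenic muscle, against 26104, 30546 and 33264 CPM in wild-type muscle (−0.60 ± 0.11 SE, adjusted p = 0.000358). Tnnt3, fast troponin T, fell by 0.46 (adjusted p = 0.000301), and Tnni2, fast troponin I, fell by 0.41 (adjusted p = 0.000961). Pvalb, parvalbumin, the calcium buffer of fast fibres, was at 1992, 2903 and 3852 CPM in treated transgenic muscle, against 4057, 5540.1 and 6863 CPM in wild-type muscle (−0.94 ± 0.15 SE, adjusted p = 0.000144), and Mybpc2, fast myosin-binding protein C, fell by 1.12 (adjusted p = 0.00361). Neither gene's arms overlapped. Casq1, which stores calcium in the sarcoplasmic reticulum, fell by 0.69 (adjusted p = 0.00073), and Actn3, the α-actinin of fast fibres, fell by 0.63 (adjusted p = 0.00116). The changes of Myh1, type IIX myosin (0.02 ± 0.13 SE, adjusted p = 0.939), and Myh2, type IIA myosin (0.58 ± 0.36 SE, adjusted p = 0.239), did not pass. Levels of 6 myosin heavy chains were also scaled by the length of all annotated exons of the gene together. That length was 6016 bases for Myh4, 8616 for Myh7 and 11772 for Myh8. It can exceed the length of 1 transcript, which would lower the share of that gene. As a share of the 6 chains, Myh4 took 35.8% to 67.1% (median 57.4%) in treated transgenic and 59.3% to 77.4% (median 72.3%) in wild-type muscle. Myh1 took 28.4% to 50.3% in treated transgenic and 21.3% to 34.6% in wild-type muscle, and Myh2 took 3.29% to 13.0% and 0.912% to 6.06%. Treated females 1 and 3 had the lowest Myh4 shares (35.8% and 43.6%). By this measure Myh7 stayed at or below 1.32% in every treated library and 0.10% in every wild-type one. These values are of bulk tissue, in which fewer fibres of a type and less RNA per fibre cannot be told apart.

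**Figure D3:**
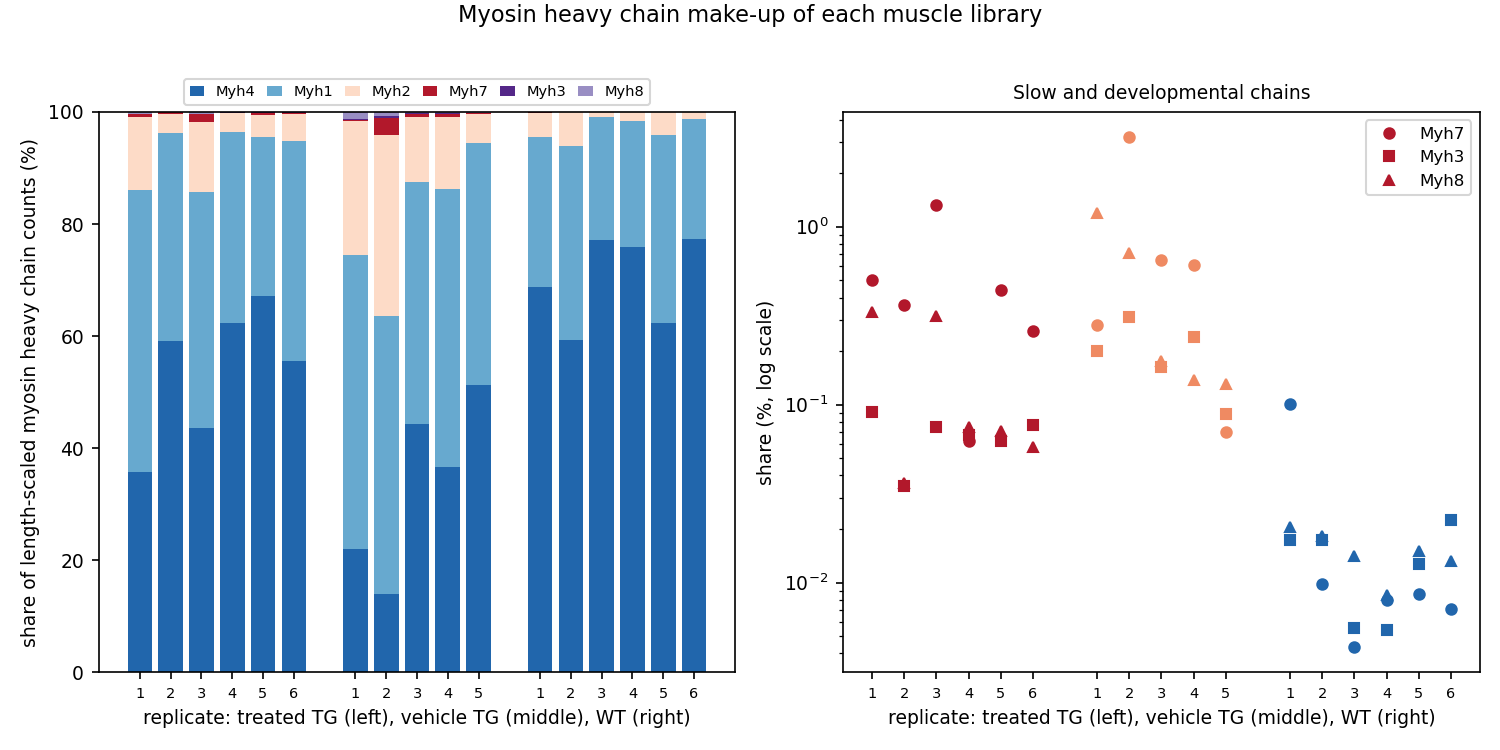
Share of each of 6 myosin heavy chain genes per library (percent of their sum after scaling by exon length), for treated transgenic, vehicle-treated transgenic and wild-type muscle from left to right. The Myh4 share lies at 35.8% to 67.1% in treated transgenic and 59.3% to 77.4% in wild-type muscle.

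Genes that couple the action potential to calcium release were mostly lower. Of 16 tested, 12 fell and 1 rose (median −0.32), where 17.4% of all genes fell and 17.3% rose. With library totals alone 6 of the 16 fell and 3 rose, so this count depends on the scaling. Jph2, junctophilin-2, which holds the T-tubule to the sarcoplasmic reticulum, was at 331, 385 and 451 CPM in treated transgenic muscle, against 494, 612 and 698 CPM in wild-type muscle (−0.64 ± 0.09 SE, adjusted p = 3.43e-05). Kcna7, a voltage-gated potassium channel, fell by 1.03 (adjusted p = 3.71e-06), and Clcn1, the chloride channel that stabilises the fibre membrane, was at 109, 130.2 and 153 CPM in treated transgenic muscle, against 182, 194 and 222 CPM in wild-type muscle (−0.61 ± 0.09 SE, adjusted p = 4.52e-05). For all 3 genes no treated library reached the wild-type range. Cacnb1, the β1 subunit of the muscle calcium channel, was the member that rose: 154, 214 and 233 CPM in treated transgenic muscle, against 141, 155 and 165 CPM in wild-type muscle (0.44 ± 0.09 SE, adjusted p = 0.000824), with treated replicate 2 apart from the other treated libraries and inside the wild-type range.

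Metabolic genes fell in glycolysis and, by smaller amounts, in oxidative phosphorylation. Of 23 genes of glycolysis and glycogen use 19 fell and 1 rose (median −0.48), where 17.4% of all genes fell. For 15 of the 23 all treated libraries lay below all wild-type libraries, which 6.8% of all genes did. With RIN as a covariate 17 of the 23 fell and 0 rose. Eno3 and Pgam2 also stand in the fast-fibre list. Phka1, a regulatory subunit of phosphorylase kinase, was at 266, 327 and 410.5 CPM in treated transgenic muscle, against 581, 653 and 915 CPM in wild-type muscle (−1.07 ± 0.14 SE, adjusted p = 1.8e-05). Pygm, muscle glycogen phosphorylase, was at 3009, 3920.1 and 4389 CPM in treated transgenic muscle, against 5171, 6351 and 7188 CPM in wild-type muscle (−0.71 ± 0.10 SE, adjusted p = 5.79e-05), and Pfkm, the muscle phosphofructokinase that sets glycolytic rate, fell by 0.64 (adjusted p = 1.4e-05). The arms of these 3 genes were fully apart. Aldoa, aldolase A, one of the most abundant transcripts, was at 8734, 10230.4 and 11375 CPM in treated transgenic muscle, against 13005, 14929 and 18229 CPM in wild-type muscle (−0.58 ± 0.10 SE, adjusted p = 0.000198), and Ckm, muscle creatine kinase, was at 7284, 9857 and 10841 CPM in treated transgenic muscle, against 11650.3, 15518 and 16312 CPM in wild-type muscle (−0.64 ± 0.10 SE, adjusted p = 0.000139). Hk1, a hexokinase that is minor in adult muscle, was the member that rose (0.52 ± 0.12 SE, adjusted p = 0.00352), a call lost with RIN as a covariate (adjusted p = 0.0562). Of 30 nuclear genes of oxidative phosphorylation 28 fell and 0 rose, by small amounts (median −0.32, range −0.55 to −0.13), and the arms were apart for 1. With RIN as a covariate 1 fell, and with library totals alone 3 fell, so this count depends on both choices. Cox7a1, a muscle subunit of cytochrome oxidase, was at 124, 159.6 and 185 CPM in treated transgenic muscle, against 182, 222 and 277 CPM in wild-type muscle (−0.55 ± 0.12 SE, adjusted p = 0.00194). Cox6a2, another muscle subunit, fell by 0.42 (adjusted p = 0.00903), a call lost with RIN as a covariate (adjusted p = 0.154). Of 13 genes of the mitochondrial genome 0 passed by edgeR, 1 had an unadjusted p under 0.05 and 1 passed by DESeq2 (median −0.12, or 0.08 on library totals alone, where 2 rose). When treated replicate 2 was left out, 3 fell. mt-Nd1, a complex I subunit, had a log2 change of −0.25 ± 0.11 (SE, adjusted p = 0.0841), and it passed without treated replicate 2 (adjusted p = 0.0111). In fatty acid oxidation 4 of 22 rose, a share near the 17.3% of all genes that rose, and 1 fell. The counts were 9 up and 0 down on library totals alone, and 3 fell without treated replicate 2. Pdk4, the kinase that shuts pyruvate out of the mitochondrion, was at 471, 883 and 1761 CPM in treated transgenic muscle, against 162, 241 and 324 CPM in wild-type muscle (1.98 ± 0.25 SE, adjusted p = 2.12e-05), with no overlap, and Ucp3, a mitochondrial carrier of muscle, rose by 0.54 (adjusted p = 0.00731).

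**Figure D4:**
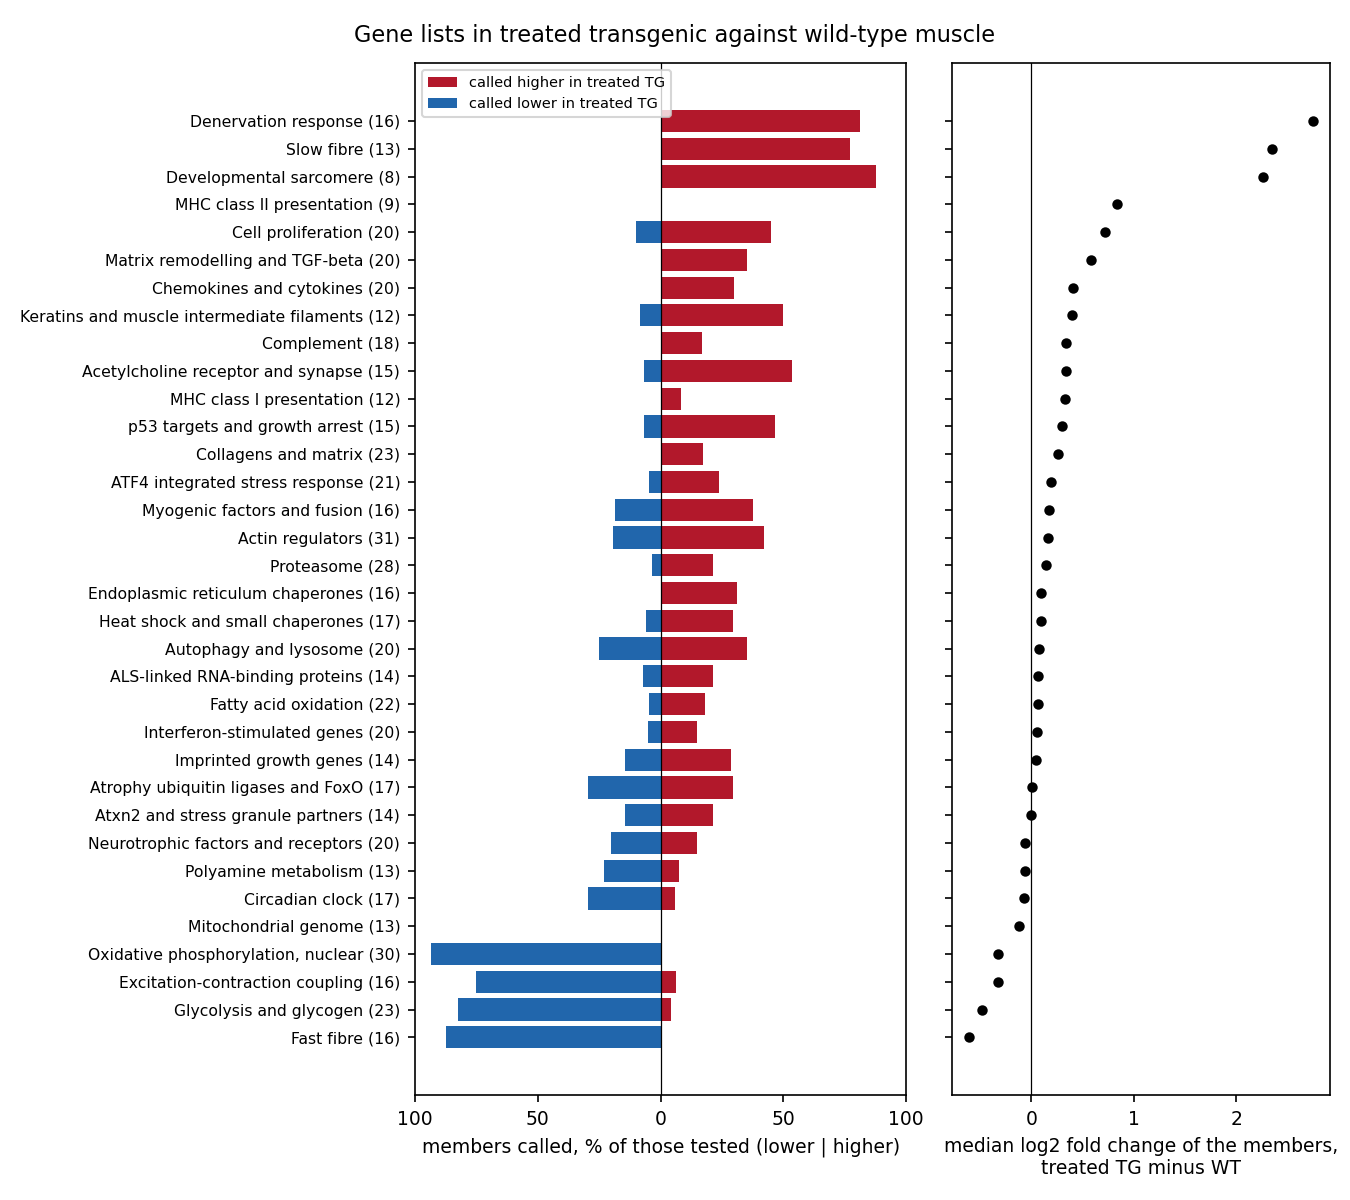
Percent of the tested members of each gene list that rose or fell in treated transgenic against wild-type muscle (left panel, bars) and the median log2 change of each list (right panel). The denervation list has 13 of 16 members up, the slow-fibre list 10 of 13 up, the fast-fibre list 14 of 16 down and the oxidative phosphorylation list 28 of 30 down.

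Genes of muscle wasting were divided, beside 17.3% of all genes that rose and 17.4% that fell. Among 17 ubiquitin ligases and FoxO factors 5 rose and 5 fell (median 0.01), but 8 rose and 2 fell on library totals alone, and 5 rose and 3 fell with RIN as a covariate. Trim63, the ligase MuRF1 that marks sarcomere proteins for breakdown, was at 209, 228 and 313 CPM in treated transgenic muscle, against 111, 142 and 207 CPM in wild-type muscle (0.69 ± 0.18 SE, adjusted p = 0.00619), without overlap. Fbxo32, the ligase atrogin-1, was at 275, 384 and 487 CPM in treated transgenic muscle, against 183, 299.7 and 372 CPM in wild-type muscle and did not pass (0.41 ± 0.18 SE, adjusted p = 0.0815). It passed without treated replicate 5 (adjusted p = 0.025) and without wild-type replicate 3 (adjusted p = 0.0222). Fbxo30, the ligase MUSA1, rose by 0.71 (adjusted p = 4.64e-06), and Fbxo21, the ligase SMART, by 0.54 (adjusted p = 9.29e-05), and for both genes the arms were apart. Foxo1 rose (0.65, adjusted p = 0.000411), while Foxo4 fell (−0.52, adjusted p = 3.86e-06). Of 28 proteasome genes 1 fell and 6 rose, a share of rises near that of all genes. This count rests on single libraries, with 16 up without treated replicate 2 and 15 up without wild-type replicate 3, and 15 and 24 rose with RIN as a covariate and with library totals alone. Psmd11, a lid subunit, rose by 0.34 (adjusted p = 0.00152). In autophagy 7 of 20 rose and 5 fell, but 13 rose and 1 fell on library totals alone, and 7 rose and 1 fell with RIN as a covariate. The lysosomal protease gene Ctsl was at 100.4, 111 and 135 CPM in treated transgenic muscle, against 57.6, 62.2 and 69.5 CPM in wild-type muscle (0.87 ± 0.06 SE, adjusted p = 5.49e-08), and Map1lc3a, an LC3 protein of the autophagosome, rose by 0.95 (adjusted p = 0.000126), while Tfeb, the transcription factor of lysosome genes, fell by 0.56 (adjusted p = 7.27e-06). The number that fell was 2 to 5 when single libraries were left out.

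Polyamine metabolism held some of the larger falls, and levels of Amd1 and Smox lay apart between males and females. Of 13 genes 1 rose and 3 fell (Amd1, Amd2 and Smox), where 17.3% of all genes rose and 17.4% fell. On library totals alone 6 rose and 3 fell. Amd1, S-adenosylmethionine decarboxylase, was at 269 to 325 CPM in treated males and 75.8 to 114 CPM in treated females, against 793 to 1437 CPM in wild-type males and 154 to 212 CPM in wild-type females. Within each sex the arms were apart, and the log2 change over both sexes was −1.51 ± 0.21 (SE, adjusted p = 4.8e-05). Amd2, a near-identical copy whose reads may be exchanged with Amd1, changed alike (−1.49, adjusted p = 2.77e-05). Smox, spermine oxidase, was at 22.3 to 34.9 CPM in treated males and 13.2 to 17 CPM in treated females, against 127 to 200.4 CPM in wild-type males and 24.6 to 47.0 CPM in wild-type females (−1.87 ± 0.25 SE, adjusted p = 3.43e-05). The difference between the sexes in these changes did not pass for Amd1, Amd2 or Smox.

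Stress pathways moved in part, beside 17.3% of all genes that rose and 17.4% that fell. Of 15 p53 targets 7 rose and 1 fell (median 0.30), with 11 up and 0 down on library totals alone and Cdkn1a and Gadd45a among them. Eda2r, a receptor of the TNF receptor family, was at 35.2, 82.9 and 109.6 CPM in treated transgenic muscle, against 6.92, 8.59 and 9.45 CPM in wild-type muscle (3.22 ± 0.21 SE, adjusted p = 4.35e-08), with no overlap. Mdm2, the ligase that degrades p53, rose by 0.50 (adjusted p = 0.000126). In the ATF4 stress response 5 of 21 rose and 1 fell, so the share that rose was not far above that of all genes. It was below that share without treated replicate 1 (2 rose) and without wild-type replicate 1 (3 rose). Slc7a5, an importer of large amino acids, rose by 2.42 (adjusted p = 3.75e-06), while Atf4 itself was at 85.3, 98.1 and 116 CPM in treated transgenic muscle, against 127, 149.8 and 185 CPM in wild-type muscle and fell (−0.61 ± 0.08 SE, adjusted p = 1.41e-05). Of 16 chaperones of the endoplasmic reticulum 5 rose and 0 fell, with 12 up on library totals alone and 3 up with RIN as a covariate. Of 17 heat shock proteins 5 rose and 1 fell, with 7 up and 0 down on library totals alone. Hspb8, a small heat shock protein of the chaperone-assisted autophagy complex, was at 491, 955 and 1536 CPM in treated transgenic muscle, against 273, 307 and 362 CPM in wild-type muscle (1.66 ± 0.20 SE, adjusted p = 1.17e-05). Cryab, αB-crystallin of the Z-disc, rose by 0.55 (adjusted p = 0.0152) with overlapping arms. Keratins stood out by size. Of 12 genes of keratins and muscle intermediate filaments 6 rose and 1 fell. Krt8 was at 4.45, 49.2 and 59.1 CPM in treated transgenic muscle, against 0.0659, 0.134 and 0.616 CPM in wild-type muscle, and Krt18, its pairing partner in the filament, at 42.5, 145 and 208 CPM in treated transgenic muscle, against 0.316, 1.00 and 2.36 CPM in wild-type muscle. Both are keratins best known from simple epithelia. They rose without overlap, Krt8 by 7.58 ± 0.63 (SE, adjusted p = 3.83e-07) and Krt18 by 7.04 ± 0.51 (SE, adjusted p = 1.01e-07), and replicate 2 was the lowest treated library for each. Krt80 rose by 3.44 (adjusted p = 4.69e-06).

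Among matrix genes few passed: 4 of 23 collagens and matrix proteins rose and 0 fell (median 0.26), a share near the 17.3% of all genes that rose, and 2 rose when either treated replicate 1 or wild-type replicate 5 was left out and when RIN was a covariate. Col1a1 and Col3a1, the fibrillar collagens of scar tissue, were at 55.1, 126 and 230.2 CPM and 107, 175 and 239 CPM in treated transgenic muscle, against 39.6, 117 and 194 CPM and 57.6, 169 and 219 CPM in wild-type muscle. Their changes of 0.19 ± 0.41 (SE, adjusted p = 0.755) for Col1a1 and 0.17 ± 0.29 (SE, adjusted p = 0.691) for Col3a1 did not pass. Col19a1 and Col25a1, minor collagens with roles at synapses, did rise. Col25a1 was at 2.25, 2.76 and 5.51 CPM in treated transgenic muscle, against 0.0836, 0.432 and 0.801 CPM in wild-type muscle (3.16 ± 0.28 SE, adjusted p = 7.44e-07), and Col19a1 rose by 3.22 (adjusted p = 2.49e-05). Of 20 genes of matrix remodelling and TGF-β signalling 7 rose and 0 fell, with 13 up on library totals alone. Timp1, an inhibitor of matrix proteases, was at 6.96, 11.3 and 20.9 CPM in treated transgenic muscle, against 0.277, 0.389 and 0.730 CPM in wild-type muscle (4.76 ± 0.32 SE, adjusted p = 5.8e-08), and Tgfb1, a growth factor that drives fibrosis, was at 13.2, 26.2 and 29.9 CPM in treated transgenic muscle, against 5.56, 8.15 and 9.25 CPM in wild-type muscle (1.64 ± 0.18 SE, adjusted p = 4.75e-06). Neither gene's arms overlapped. Lox, which cross-links collagen, rose by 1.64 (adjusted p = 0.000484). Of 11 fibroblast markers 0 passed by edgeR, 3 had an unadjusted p under 0.05 and 2 rose by DESeq2, and 3 rose without treated replicate 6. They summed to 421 to 996 CPM in treated transgenic and 316 to 864 CPM in wild-type muscle. Of 5 tested markers of cartilage and bone 3 rose, and of 7 tendon markers 1 rose. Scx, a tendon transcription factor, was at 6.51, 19.2 and 39.2 CPM in treated transgenic muscle, against 2.14, 3.26 and 3.97 CPM in wild-type muscle (2.69 ± 0.30 SE, adjusted p = 5.13e-06), and Sox9, a cartilage factor, rose by 2.34 (adjusted p = 4.93e-06). Col10a1, a collagen of growth plates, rose by 5.18 (adjusted p = 4.8e-07).

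Among immune groups, the shares of rises among interferon-stimulated and complement genes were near the 17.3% of all genes. Those of MHC class I and class II genes were smaller. Of 15 macrophage markers 6 rose and 0 fell (median 0.64), and their summed level was 66.9 to 125 CPM in treated transgenic and 27.1 to 88.2 CPM in wild-type muscle. Of these markers 3 rose when treated replicate 4 or wild-type replicate 3 was left out, 3 rose without mice older than 36 weeks, and 2 rose with RIN as a covariate. Cd68, a lysosomal protein of macrophages, was at 3.72, 9.26 and 11.6 CPM in treated transgenic muscle, against 0.771, 2.25 and 3.11 CPM in wild-type muscle (1.94 ± 0.33 SE, adjusted p = 0.000233), and Lgals3, galectin-3, rose by 2.06 (adjusted p = 0.000174). Of 20 interferon-stimulated genes 3 rose and 1 fell, and 1 rose with RIN as a covariate, without mice older than 36 weeks and in several fits with 1 library left out. Of 12 genes of MHC class I 1 rose, and 4 did without wild-type replicate 1. Of 9 genes of class II 0 passed by edgeR, 5 had an unadjusted p under 0.05 and 3 rose by DESeq2, and 7 rose without wild-type replicate 1. The class II genes had a median log2 change of 0.83, with a range of 0.15 to 1.05. Ifitm3, which blocks virus entry, was at 31.7, 46.2 and 58.2 CPM in treated transgenic muscle, against 15.5, 17.3 and 29.2 CPM in wild-type muscle (1.16 ± 0.17 SE, adjusted p = 7.45e-05). Of 18 complement genes 3 rose and 0 fell, and 1 to 5 rose when single libraries were left out (1 without treated replicate 4 or wild-type replicate 5), 8 on library totals alone and 0 with RIN as a covariate. C4b rose by 1.38 (adjusted p = 0.00622), and the call was lost with RIN as a covariate (adjusted p = 0.0837). Among 20 chemokines and cytokines 6 rose, with 10 up on library totals alone and 3 up with RIN as a covariate. Cx3cl1, fractalkine, was at 5.69, 7.97 and 10.4 CPM in treated transgenic muscle, against 2.17, 2.91 and 4.21 CPM in wild-type muscle (1.39 ± 0.15 SE, adjusted p = 4.77e-06), and Cxcl10 rose by 3.63 (adjusted p = 0.000116) with at most 0.138 CPM in any wild-type library. Trdc, the constant region of the T cell receptor δ chain, was at 4.50, 7.60 and 21.7 CPM in treated transgenic muscle, against 0.0659, 0.125 and 0.279 CPM in wild-type muscle (6.05 ± 0.40 SE, adjusted p = 4.35e-08), with no overlap. Of 12 other T cell markers 4 had counts enough to test and 1 rose, Zap70 (2.44, adjusted p = 9.52e-06). Of the 4 tested, 3 had an unadjusted p under 0.05 and 3 rose without treated replicate 2. Without treated replicate 5 or wild-type replicate 2 or 3, 2 rose. The 12 summed to 1.24 to 2.78 CPM in treated transgenic and 0.554 to 1.14 CPM in wild-type muscle. The part of T cells in the rise of Trdc was not tested. Of other cells the tissue can hold, 3 of 8 satellite cell markers, 2 of 5 neutrophil markers, 3 of 8 markers of B and plasma cells, 2 of 4 tested neuron markers and 1 of 9 fat cell markers rose, and 1 of 10 pericyte and smooth muscle markers fell (5 without wild-type replicate 3). For 10 endothelial, 7 red cell and 6 mast cell markers 0 passed by edgeR or DESeq2, and 0 had an unadjusted p under 0.05, though 3 endothelial markers fell without wild-type replicate 3.

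Of 20 neurotrophic factors and receptors, signals between muscle and nerve, 3 rose and 4 fell (median −0.06), shares near those of all genes, of which 17.3% rose and 17.4% fell. Gdnf, a survival factor for motor neurons, was at 2.86, 6.36 and 7.94 CPM in treated transgenic muscle, against 1.02, 1.15 and 1.33 CPM in wild-type muscle (2.34 ± 0.24 SE, adjusted p = 2.55e-06). Ngfr, the p75 neurotrophin receptor, was at 3.65, 4.48 and 5.01 CPM in treated transgenic muscle, against 0.962, 1.90 and 2.52 CPM in wild-type muscle (1.31 ± 0.19 SE, adjusted p = 6.2e-05). It is also a marker of Schwann cells, of which 4 of 12 rose and 0 fell, with a summed level of 62.2 to 130 CPM in treated transgenic and 49.4 to 98.3 CPM in wild-type muscle. Ntf5, neurotrophin-4, was at 2.17, 2.30 and 3.67 CPM in treated transgenic muscle, against 5.20, 6.13 and 8.01 CPM in wild-type muscle and fell (−1.27 ± 0.15 SE, adjusted p = 1.14e-05), and Vegfa, the vessel growth factor, fell by 0.74 (adjusted p = 0.000221). For all 4 of these genes the arms were apart. Among 31 actin regulators, the group of PFN1 itself, 13 rose and 6 fell (median 0.16), with 8 up and 7 down when RIN was a covariate. Pfn2, the second profilin, was at 66.7, 85.5 and 91.2 CPM in treated transgenic muscle, against 107, 129 and 133 CPM in wild-type muscle (−0.61 ± 0.06 SE, adjusted p = 2.27e-06), and Lmod2, which lengthens thin filaments, rose by 1.35 (adjusted p = 0.000236). Of 14 Atxn2 partners 3 rose and 2 fell, shares near those of all genes. On library totals alone 9 rose and 1 fell, and with RIN as a covariate 1 rose and 2 fell. Among them was Lsm12 (−0.39, adjusted p = 3.63e-06). Of 14 RNA-binding proteins linked to ALS 1 fell and 3 rose, a share of rises near that of all genes. On library totals alone 10 rose and 0 fell. Of 14 imprinted growth genes 4 rose and 2 fell, with 6 up and 1 down on library totals alone. H19, a noncoding RNA of fetal muscle, was at 1018, 1436 and 3928 CPM in treated transgenic muscle, against 274, 597 and 1109 CPM in wild-type muscle (1.67 ± 0.19 SE, adjusted p = 7.31e-06), and Peg3 rose by 1.48 (adjusted p = 1.46e-05). Of 17 clock genes 1 rose and 5 fell, but on library totals alone 2 rose and 0 fell. Of 20 proliferation genes 9 rose and 2 fell, with 5 up when RIN was a covariate. Rrm2, a subunit of the enzyme that makes deoxynucleotides, rose by 2.21 (adjusted p = 3.59e-06), while Aurka, a mitotic kinase, was at 2.03, 2.65 and 2.92 CPM in treated transgenic muscle, against 5.47, 6.58 and 7.63 CPM in wild-type muscle and fell (−1.34 ± 0.10 SE, adjusted p = 1.15e-07).

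The largest changes over all genes were read by size among called genes of at least 1 CPM. Beside Krt8, Krt18, Trdc and Sln, the rises included Bpifb1, a secreted protein of epithelia, at 0.336, 9.94 and 15.8 CPM in treated transgenic muscle, against 0.0132, 0.0317 and 0.139 CPM in wild-type muscle (7.39 ± 0.83 SE, adjusted p = 5.94e-06), with treated replicate 2 far below the other treated libraries. Cntn2, an axonal adhesion molecule, rose by 6.52 (adjusted p = 2.1e-06), Igfbp2, which binds insulin-like growth factors, by 6.48 (adjusted p = 3.83e-07), Ankrd55 by 5.92 (adjusted p = 1.74e-07) and Ces2c, a carboxylesterase, by 5.48 (adjusted p = 4.35e-08). All treated libraries of these 4 genes exceeded all wild-type libraries. Nbdy, which encodes a microprotein of RNA decapping bodies, had 0 counts in all 6 treated and all 5 vehicle-treated transgenic libraries, against 317 to 527 counts in each wild-type library. With a floor of 3 counts over the arm it was at least 1112-fold lower in treated transgenic muscle (under 0.00513 CPM, against 5.70 CPM). Lamr1-ps1, a ribosomal pseudogene chosen after its values were seen, went the other way. It had 202 to 266 counts in treated and 0 in every wild-type library, at least 363-fold higher in treated transgenic muscle. Its highest count in a vehicle-treated transgenic library was 312. Reads of pseudogenes can come from their parent genes. Mss51, a mitochondrial protein of glycolytic muscle, was at 19.5, 27.4 and 40.1 CPM in treated transgenic muscle, against 110.0, 189 and 239.6 CPM in wild-type muscle (−2.67 ± 0.20 SE, adjusted p = 1.66e-07). No treated library reached the wild-type range. Ildr1 fell by 3.29 (adjusted p = 4.77e-06), Kcnab1, a potassium channel subunit, fell by 2.75 (adjusted p = 8.46e-06), Syt9, a calcium sensor of exocytosis, fell by 2.32 (adjusted p = 8.85e-06), and Casr, the calcium-sensing receptor, fell by 2.13 (adjusted p = 1.65e-05), each without overlap. Dkk3 fell by 2.55 (adjusted p = 0.000585), Katnal2 fell by 1.91 (adjusted p = 1.76e-05) and Prima1, which anchors acetylcholinesterase in membranes, fell by 2.02 (adjusted p = 0.00608), with overlapping arms. The call of Prima1 was lost with RIN as a covariate (adjusted p = 0.069). Trnp1 fell by 3.57 ± 0.73 (SE, adjusted p = 0.00121). It was at 0.320 to 0.850 CPM in treated males and 0.0185 to 0.0747 CPM in treated females, against 4.68 to 14.5 CPM in wild-type males and 0.0133 to 0.0318 CPM in wild-type females, and the difference between the sexes in its change did not pass.

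Among abundant transcripts, Car3, carbonic anhydrase III of slow fibres and fat, was at 5853, 9548 and 10139.8 CPM in treated transgenic muscle, against 1985, 2805 and 4176 CPM in wild-type muscle (1.62 ± 0.18 SE, adjusted p = 4.93e-06), with no overlap. Fhl1, a LIM protein of the sarcomere, rose by 0.94 (adjusted p = 0.0121), a call lost with RIN as a covariate (adjusted p = 0.0702) and with the replicate number as a block (adjusted p = 0.0612). Hsp90ab1, a cytosolic chaperone (0.21, adjusted p = 0.0301), and Flnc, a filamin of the Z-disc (0.56, adjusted p = 0.0304), passed narrowly. Hsp90ab1 lost its call without treated replicate 1 or 4 or wild-type replicate 1, 2 or 4 (adjusted p up to 0.0788), and Flnc without treated replicate 1 or 4 or wild-type replicate 2, 3 or 6 (up to 0.0896). With RIN as a covariate neither passed (0.0912 for Hsp90ab1 and 0.104 for Flnc).

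The change was compared between the sexes as an interaction term, on 17868 genes. It passed for 2 genes (0.0112%), 1 in each direction (0.0056% each), with 1346 at an unadjusted p under 0.05 (7.53%). Ripor2, which regulates the GTPase RhoA, was at 1.04 to 1.08 CPM in treated males and 1.05 to 1.22 CPM in treated females, against 3.51 to 5.70 CPM in wild-type males and 1.34 to 1.49 CPM in wild-type females. The log2 change was −0.31 in females and −2.12 in males, a difference of 1.81 ± 0.25 (SE, adjusted p = 0.0323). Fgf12, an intracellular regulator of sodium channels, was at 1.80 to 2.15 CPM in treated males and 0.673 to 0.972 CPM in treated females, against 0.0395 to 0.0836 CPM in wild-type males and 0.159 to 0.339 CPM in wild-type females. Its log2 change was 1.79 in females and 4.94 in males, a difference of −3.15 ± 0.44 (SE, adjusted p = 0.0323). Both treated mice older than 36 weeks were female, so age and sex are partly confounded in the treated arm. The count of 2 is unstable: it was 75 with DESeq2 and 0 without treated replicate 1, 5 or 6 or wild-type replicate 1, 3, 4 or 6.

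Vehicle-treated transgenic muscle differed from the same wild-type libraries in 8593 genes (50%), 4375 up and 4218 down, and the 2 comparisons share those libraries. Side by side, treated against wild type and vehicle-treated against wild type, the log2 change was 3.49 and 3.93 for Chrna1, 3.45 and 3.68 for Myog, and 4.08 and 4.40 for Runx1. Denervation genes rose in 13 of 16 cases in both (25.5% of all genes rose in vehicle-treated transgenic against wild-type muscle, and 24.6% fell), with medians of 2.74 and 3.02. Fast-fibre genes fell in 14 of 16 in both, with medians of −0.61 and −1.04, and nuclear genes of oxidative phosphorylation fell in 28 and 29 of 30. Collagens and matrix proteins rose in 4 of 23 in treated transgenic against wild-type and in 21 of 23 in vehicle-treated transgenic against wild-type muscle, with medians of 0.26 and 1.47. Macrophage markers rose in 6 and 13 of 15, fibroblast markers in 0 and 9 of 11, and complement genes in 3 and 15 of 18. The difference between the 2 transgenic arms was tested directly. Of 17170 genes 185 (1.08%) passed in treated minus vehicle-treated transgenic muscle, 129 up (0.751%) and 56 down (0.326%), and 3258 had an unadjusted p under 0.05. Among them were 6 fast-fibre genes and 8 of glycolysis, all higher with treatment, and 2 collagens and matrix genes, both lower. The fast-fibre and glycolysis lists share Eno3 and Pgam2, so the 6 and the 8 may hold the same genes in part. Of 16 denervation, 8 developmental and 13 slow-fibre genes 0 passed by edgeR, 1, 3 and 2 of them had an unadjusted p under 0.05, and 0, 1 and 1 passed by DESeq2. Of the lists whose counts against wild type stand apart above, 0 of 15 macrophage markers, 1 of 11 fibroblast markers (lower with treatment) and 0 of 18 complement genes passed between the transgenic arms by edgeR, while 8, 7 and 13 had an unadjusted p under 0.05 and 4, 3 and 4 passed by DESeq2. DESeq2 called 951 genes in all. Fbp2, the muscle fructose bisphosphatase, had the smallest adjusted p. It was at 10.1, 12.6 and 16.2 CPM in treated transgenic, 5.22 to 6.71 CPM in vehicle-treated transgenic and 12.2, 14.1 and 19.5 CPM in wild-type muscle, a log2 difference of 1.07 ± 0.13 (SE, adjusted p = 0.0072) between the transgenic arms, and treated muscle overlapped with wild type. Tpbgl was at 6.99, 9.84 and 14.7 CPM in treated transgenic, 2.32 to 4.54 CPM in vehicle-treated transgenic and 21.4, 26.6 and 33.6 CPM in wild-type muscle (1.52 ± 0.21 SE, adjusted p = 0.0133). Treated libraries thus lay between the other 2 arms, above all vehicle-treated and below all wild-type libraries. Camk2a, a calcium-dependent kinase (0.70 ± 0.10 SE, adjusted p = 0.02), Sar1b, of vesicle budding (0.56 ± 0.09, adjusted p = 0.02), and the myosin gene Myo5c (0.80 ± 0.12, adjusted p = 0.02) were higher with treatment as well. This count depends on single libraries. It was 951 without wild-type replicate 3, which enters through the scaling, the sex term and the shared spread, 1 without treated replicate 5 and 32 without treated replicate 6, and 1 without mice older than 36 weeks.

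Spinal cord of the same 2 arms was compared in a joint model of 52 libraries and 22578 genes. The labels do not tie tissues to animals, so the model took all libraries as independent, and its p-values rest on that. Wild-type spinal cord mice were all 36 weeks old. Treated ones were 36 weeks old except replicate 2 (38 weeks) and replicate 3 (39 weeks), both female. In 4 of 18 spinal cord libraries, and in 0 of 17 muscle libraries, the labels disagree on the arm, since the name of the library contradicts the title: treated replicates 1 and 2 carry vehicle library names, and vehicle-treated transgenic replicates 5 and 6 carry amiR library names. Arms follow the titles, and with them the treatment labels. The WPRE element had 3189 and 3338 counts in the 2 treated libraries in question and 3373 to 6962 in the other 4, against 0 in all vehicle-treated transgenic and wild-type spinal cord libraries. Unscaled Atxn2 was at 68.2 and 76.2 CPM in the 2 treated libraries in question and 70.4 to 77.5 CPM in the other 4, against 106 and 110.1 CPM in the 2 vehicle-treated libraries in question, 108 to 115 CPM in the other 4 and 115 to 124 CPM in wild type. Both measures thus placed each of the 4 libraries with the arm of its title. The muscle change exceeded the spinal cord change for 2848 genes (12.6%) and lay below it for 1972 (8.73%), 4820 in all (21.3%). In spinal cord itself 3988 genes (17.7%) differed between treated transgenic and wild-type mice, 1961 up (8.69%) and 2027 down (8.98%). Without the 4 libraries, a fit added after the data were seen, the muscle change exceeded the spinal cord change for 2508 genes and lay below it for 1486, and 1307 genes rose and 1252 fell in spinal cord. Atxn2 fell in spinal cord by 0.81 (adjusted p = 5.61e-14), and the muscle change was higher by 0.80 ± 0.08 (SE, adjusted p = 3.33e-10). Without the 4 libraries its spinal cord change was −0.81 and the difference 0.80 ± 0.09 (SE, adjusted p = 2.09e-08). The 5 genes with the smallest adjusted p all rose in muscle. Aif1l, an actin-binding protein, was at 50.6, 98.1 and 123 CPM in treated transgenic muscle, against 2.79, 4.38 and 5.81 CPM in wild-type muscle. Its log2 change was 4.41 ± 0.24 (SE, adjusted p = 1.05e-08) in muscle and −0.40 (adjusted p = 0.0626) in spinal cord, a difference of 4.83 ± 0.23 (SE, adjusted p = 4.6e-20). Fez1, an adaptor of axonal transport, rose by 3.93 (adjusted p = 5.8e-08) in muscle, Nrcam, a cell adhesion molecule, by 4.61 (adjusted p = 1.01e-07), and Ugcg, which makes glucosylceramide, by 2.24 (adjusted p = 2.57e-07). Their muscle change exceeded that in spinal cord by 4.04 ± 0.22 (SE, adjusted p = 7.76e-18) for Fez1, 4.61 ± 0.31 (SE, adjusted p = 3.53e-15) for Nrcam and 2.56 ± 0.17 (SE, adjusted p = 3.53e-15) for Ugcg, and by 6.22 ± 0.38 (SE, adjusted p = 1.73e-16) for Ankrd55. Of 17 denervation genes in the joint model the muscle change was higher for 12 and lower for 0, and in spinal cord 3 rose and 1 fell (12 and 0, and 1 and 0, without the 4 libraries). Immune groups went the other way. Of 20 interferon-stimulated genes 16 rose in spinal cord, and the muscle change was lower for 13; of 12 MHC class I genes 11 rose in spinal cord, and the muscle change was lower for 8. Macrophage markers rose in 13 of 15 cases in spinal cord, with the muscle change lower for 7. Cd68 rose by 2.90 (adjusted p = 1.14e-09) in spinal cord, and the difference from muscle did not pass (−0.95 ± 0.41 SE, adjusted p = 0.0987). Without the 4 libraries 16 interferon-stimulated, 10 MHC class I and 13 macrophage genes rose in spinal cord, and the muscle change was lower for 11, 7 and 6. The difference between muscle and spinal cord was then 4.86 for Aif1l, 4.04 for Fez1, 4.53 for Nrcam, 2.55 for Ugcg and 6.19 for Ankrd55. Some lists turned in spinal cord: the median was −1.92 for fast-fibre genes without the 4 libraries and 0.93 with them. In the same order it was −0.36 and 0.47 for excitation-contraction coupling and −0.23 and 0.29 for slow-fibre genes. It was −0.05 and 0.42 for fatty acid oxidation, −0.25 and 0.14 for muscle formation and −0.14 and 0.09 for collagens and matrix. The medians of oxidative phosphorylation, glycolysis and autophagy also changed sign, by small amounts. No direction is given for any of these lists in spinal cord.

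**Figure D5:**
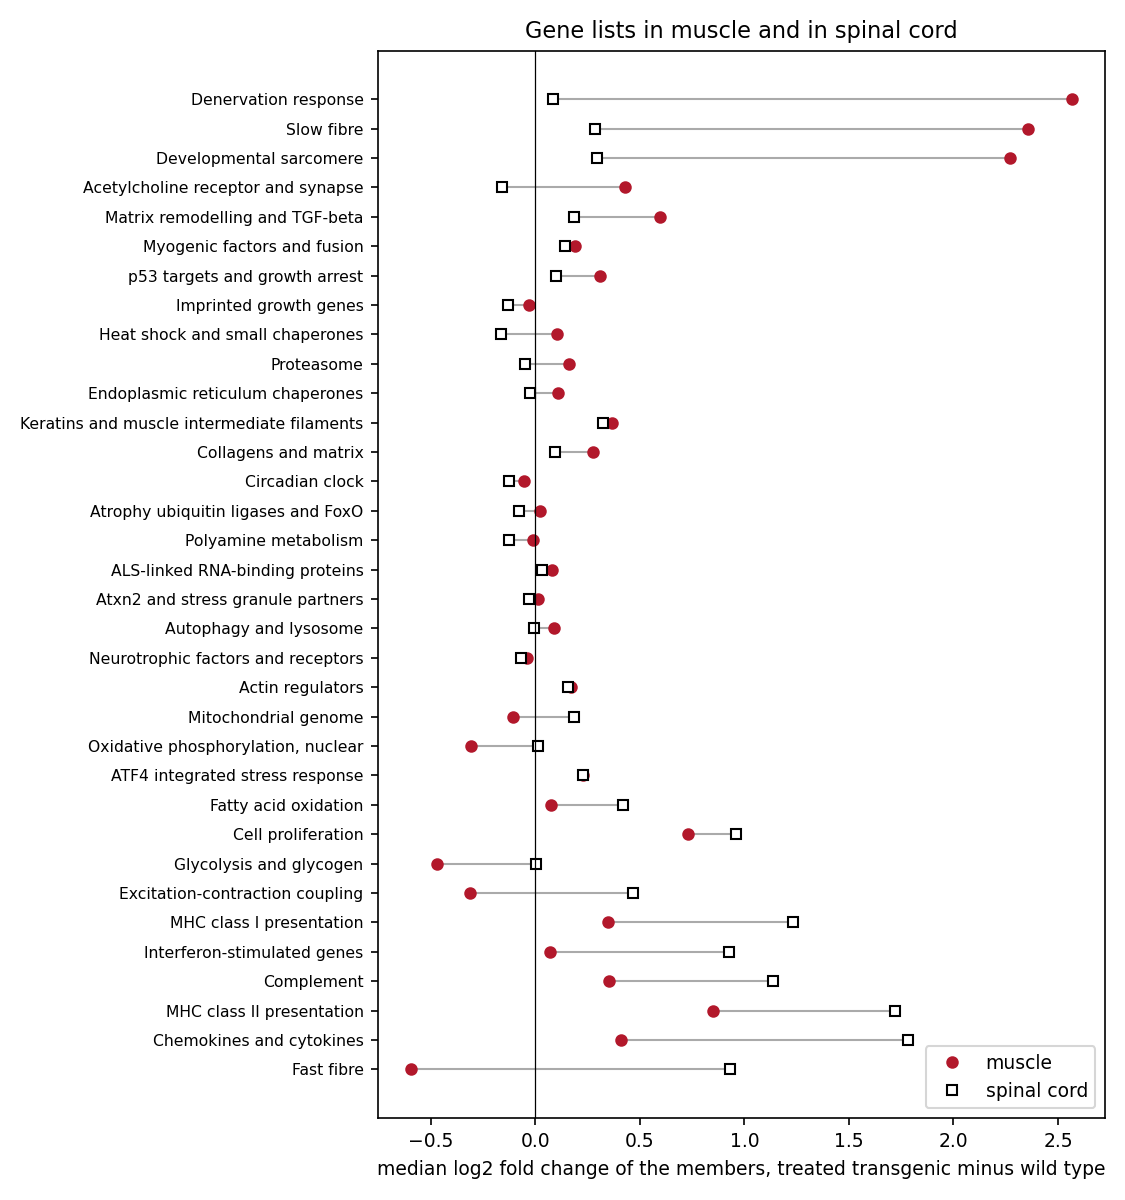
Median log2 change of each gene list (x axis) in treated transgenic against wild-type mice, in muscle (red dots) and in spinal cord (open squares), from the joint model, with lists down the page ordered by the difference. The denervation list lies at 2.57 in muscle and 0.08 in spinal cord, and the MHC class I list at 0.35 in muscle and 1.23 in spinal cord. The spinal cord values of the fast-fibre, slow-fibre, excitation-contraction, fatty acid oxidation, muscle formation and collagen lists change sign without the 4 libraries whose labels conflict. Those of the oxidative phosphorylation, glycolysis and autophagy lists do so too, by small amounts.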

How the data were processed

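Poly(A) RNA of skeletal muscle, spinal cord and cortex was sequenced in 52 libraries. Per the submitters' processing notes, the tools included RSEM 1.3.2, STAR 2.7.2d, DESeq2 1.34.0 and bcl2fastq 2.20, and the builds were GRCm38 and GRCh38, with no role or order given. The authors deposited estimated counts per gene, not normalized (15.2% of values above 0 are not whole), for 55401 mouse genes, 1 human gene, 16 vector elements and 92 spike-in lines, which were at 0 in all muscle libraries. Symbols came from GENCODE M21 for 55141 mouse genes.

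Values of 17 muscle libraries were rounded to whole numbers, filtered with edgeR 4.0.16 (filterByExpr), TMM-scaled and fitted by its quasi-likelihood test with arm and sex as terms, in R 4.3.3, with Benjamini-Hochberg adjustment over all genes tested and a threshold of 0.05. The sexes were compared in a fit with arm and sex combined, and muscle with spinal cord in a joint fit of 52 libraries with a sex term per tissue. Human PFN1, Pfn1 and Atxn2 were compared by a two-sided exact permutation test of log2(CPM + 0.5) on unscaled CPM. DESeq2 1.42.0 was an alternative, as were other scalings, filters, covariates and sets of libraries. The fit was tested on simulated counts. No 2 muscle libraries of an arm agreed within sampling noise (lowest chi-square per gene 21.8).

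Named are the vector and target genes, the 10 called genes that rose most and the 10 that fell most (mean CPM of 1 or more), the 5 most abundant called genes each way, members of the gene lists, and the 5 genes of smallest adjusted p in the sex, treatment and spinal cord differences, without predicted or clone-named models. A few genes that this rule covers are not reported here. The members and lists were chosen with earlier results of these data known. The floor of 3 counts covers counting error only. The cortex libraries entered the joint fit only.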

Additional observations from a re-analysis of the deposited data

Results flagged for a closer look

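In 282 groups of 6 libraries (the treated transgenic and the wild-type arm of each gene named above), 20 had a library far from the others by Dixon's test at 95%, and chance gives about 1 in 20 groups. Treated replicate 2 was apart in 5: it was lowest for Chrna1 (64.0 CPM), Cacnb1 (154 CPM), Tgfb1 (13.2 CPM) and Fez1 (4.43 CPM) and highest for Casr (3.28 CPM). Other treated libraries were apart for Myh7 (687 CPM), Tnnt1 (310.4 CPM) and Tnnc1 (111 CPM) in replicate 3, Trdc (21.7 CPM) and Pfkm (2451 CPM) in replicate 1, and Dkk3 (7.81 CPM) in replicate 5.

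Wild-type replicate 1 was apart in slow-fibre genes, with 82.4 CPM of Myh7, 28.4 CPM of Tnnt1, 11.0 CPM of Tnni1, 12.2 CPM of Tnnc1 and 25.4 CPM of Myl2. Wild-type replicate 3 was apart for Pfn1 (113 CPM), Tgfb1 (5.56 CPM) and Col19a1 (0.319 CPM), and wild-type replicate 2 for Mymx (0.159 CPM).

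The change differed between the sexes by 1.81 for Ripor2 and −3.15 for Fgf12 on the log2 scale, female minus male, by the interaction term. It differed between muscle and spinal cord, muscle minus spinal cord, by 6.22 for Ankrd55, 4.83 for Aif1l, 4.61 for Nrcam, 4.04 for Fez1 and 2.56 for Ugcg. The vector element WPRE had 17 counts over the 6 treated muscle libraries and 0 in wild type.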

How the results depend on the processing

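No label says that numbers shared between arms pair the libraries. The correlation of deviations within a number was −0.0461 to 0.236 over 6 pairs. Libraries of a number share their sex, and with sex removed the correlation was −0.09 to 0.00861. Pairs of unlike numbers were not compared. With the replicate number as a block on the 12 libraries, 4737 genes passed for treated transgenic minus wild type, against 5966 without it. That count was 5062 to 6378 with 1 library left out and 1200 in females only (738 up, 462 down). On library totals alone 6202 rose and 1062 fell, and with RIN as a covariate 1853 fell. For treated minus vehicle-treated transgenic (185 genes) the count was 951 with DESeq2, 582 on library totals, 474 with RIN, 295 with no filter, 3 with no sex term, 1 without mice older than 36 weeks, 0 in females or males only, and 1 to 951 with 1 library left out: 47, 59, 95, 1 and 32 without treated replicates 2 to 6, and 951 and 117 without wild-type replicates 3 and 4. For the sex difference (2 genes) it was 75 with DESeq2, 25 with no filter, 7 without older mice, 4 with RLE, 1 with RIN or on the 12 libraries alone, 0 on library totals or upper-quartile scaling, and 0 to 6 with 1 library left out. The muscle minus spinal cord count was 4356 to 5209 with 1 library left out and 3994 without 4 spinal cord libraries whose labels conflict, an alternative chosen after seeing the data. Of 130 genes named and called, DESeq2 kept 130, library totals 129, the block 129, RIN 122 and males only 125, fits without 1 library kept at least 128, and females only kept 93 of 129, with 0 reversed. In the permutation test on TMM-scaled CPM, the Atxn2 difference was −0.033 (adjusted p = 0.608) and that of Pfn1 was 0.15 (adjusted p = 0.146). The causes of these shifts were not tested.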
